A study of Mus musculus with 32 samples.

Results

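Cytochrome P450 genes encode haem enzymes that insert an oxygen atom into fatty acids, sterols, retinoids, vitamin D, steroids and foreign compounds. The members described here are the mouse genes whose current symbol is Cyp followed by a family number, a letter and a gene number, and whose array probe was well above background on at least 4 of the 32 arrays. Of 96 genes on the array that carry such a symbol, 51 met this rule, out of 14857 named genes that met the same signal rule. Cyp1a2 and Cyp3a13 were just inside it, with 4 arrays each, and Cyp2a12, Cyp2c50 and Cyp4a14 were just outside it, with 3 arrays each. Another 27 of the 96 genes were well above background on 0 arrays, among them Cyp11a1, Cyp19a1, Cyp24a1, Cyp26a1, Cyp7a1 and Cyp8b1. Cyp51, Ptgis and Tbxas1, P450 genes whose symbols the rule does not take, were set aside as a separate list.

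The study, which by its title concerns mature brown adipocytes, measured RNA of C57Bl/6 mouse cells on 1-colour arrays, in 8 groups of 4 arrays. In culture, cells with a knockdown of Pparg or of Gyk (glycerol kinase, which the current gene table calls Gk) each had their own control group. In mice, arrays labelled Pparg knockout and their controls came from animals at room temperature and from animals exposed to cold. The labels call the cells of every group preadipocytes. They do not give the ages, the tissue taken, how the knockdowns or the knockout were made, how long the cold lasted, or whether the arrays of a group came from separate animals or cultures, so p-values measure the spread between arrays, which may be technical. The questions the design addresses are which genes depend on Pparg, the nuclear receptor that directs fat cell differentiation, on Gyk, and on cold.

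Most microsomal P450 enzymes draw their electrons from the reductase Por, and the mitochondrial ones from ferredoxin and its reductase. The family falls into groups by substrate: families 17 and 21 make steroid hormones, families 7, 27 and 39 oxidise cholesterol and its derivatives on the way to bile acids, families 2R and 26 act on vitamin D and retinoic acid, and family 4 hydroxylates fatty acids. Family 1 is classically induced through the Ah receptor and family 2 holds most of the enzymes of foreign compounds. In adipocytes these enzymes are less studied than in the liver, where many of them are most abundant.

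The start regions of 5 genes on which the results turn are shown because these genes differed in the Pparg knockdown and on the arrays labelled Pparg knockout (Cyp2f2, Cyp4f14, Cyp1b1, Cyp4v3) or with cold (Cyp1a1). Each line holds the 250 bases before the RefSeq start in build GRCm38.p6, on the gene's own strand, and capitals mark the motifs searched: the nuclear receptor core site AGGTCA, or the core of the Ah receptor element GCGTG, which reads CACGC on the other strand. The intervals are chr7:27119705-27119954 (plus strand) for Cyp2f2, chr17:32917357-32917606 (minus) for Cyp4f14, chr17:79715062-79715311 (minus) for Cyp1b1, chr8:45333164-45333413 (minus) for Cyp4v3 and chr9:57697363-57697612 (plus) for Cyp1a1. Cyp4f14 has 4 start windows in the table, of which 1 is shown.
Cyp2f2: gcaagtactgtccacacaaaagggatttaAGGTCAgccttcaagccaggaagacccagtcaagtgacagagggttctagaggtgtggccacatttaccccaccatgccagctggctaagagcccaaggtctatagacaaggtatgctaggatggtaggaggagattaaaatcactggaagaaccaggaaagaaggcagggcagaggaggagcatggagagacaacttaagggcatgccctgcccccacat
Cyp4f14: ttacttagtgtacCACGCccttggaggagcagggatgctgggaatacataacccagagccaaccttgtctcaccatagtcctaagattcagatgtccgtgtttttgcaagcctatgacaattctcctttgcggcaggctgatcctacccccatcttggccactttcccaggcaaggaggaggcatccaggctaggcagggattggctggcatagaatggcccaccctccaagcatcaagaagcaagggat
Cyp1b1: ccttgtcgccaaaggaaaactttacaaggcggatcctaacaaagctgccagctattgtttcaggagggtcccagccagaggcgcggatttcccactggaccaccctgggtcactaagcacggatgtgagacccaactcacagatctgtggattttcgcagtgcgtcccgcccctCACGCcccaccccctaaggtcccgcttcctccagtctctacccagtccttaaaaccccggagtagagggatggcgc
Cyp4v3: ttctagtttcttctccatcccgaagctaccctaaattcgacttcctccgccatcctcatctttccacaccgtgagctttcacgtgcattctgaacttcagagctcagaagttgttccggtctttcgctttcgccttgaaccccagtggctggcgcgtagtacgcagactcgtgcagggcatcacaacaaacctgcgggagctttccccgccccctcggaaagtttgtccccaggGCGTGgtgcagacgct
Cyp1a1: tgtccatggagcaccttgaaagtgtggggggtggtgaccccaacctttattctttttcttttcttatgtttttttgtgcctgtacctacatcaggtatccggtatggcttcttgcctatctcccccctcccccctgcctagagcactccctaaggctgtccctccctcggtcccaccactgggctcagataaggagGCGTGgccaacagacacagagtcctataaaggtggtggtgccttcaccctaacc
Cyp2f2 held an AGGTCA site at position -221 from the start, and Cyp4f14, Cyp1b1, Cyp4v3 and Cyp1a1 each held the Ah receptor core once, at -237, -76, -16 and -54. Over windows from 250 bases before to 50 after the start, on both strands, the DR1 motif, a pair of AGGTCA sites in tandem 1 base apart, occurred in 0 of 41 windows of the 37 members found in the table and in 0.0396% of all 32851 windows. A single AGGTCA occurred in 6 of 41 member windows (14.6%, against 16.3% of all windows) and GCGTG in 13 of 41 (31.7%, against 32.4%). These shares lay close to those of all genes, and a match is only a description of the letters in these windows.

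Signal is given as log2 relative to the 75th percentile of each array, and adjusted p-values come from limma, corrected by Benjamini-Hochberg over every gene in the fit. A gene is called when its adjusted p is under 0.05. Levels are compared between arrays for 1 gene at a time, since different probes differ in brightness per molecule. Named genes well above background numbered 11179 to 13849 per array. Pparg fell by 1.91 (SE 0.122) in the culture knockdown, and Gk fell by 2.40 (SE 0.391) in the Gyk knockdown. On the arrays labelled Pparg knockout the Pparg probe was higher than in the controls, by 2.08 (SE 0.0889) at room temperature and 2.13 (SE 0.221) in the cold, which goes against the label. Whether that probe lies outside a deleted stretch is not known here, so these groups are called by their label throughout. The brown adipocyte marker Ucp1 was lower on the same arrays, by 2.02-fold at room temperature and 2.02-fold in the cold, and 5 of 6 adipocyte markers fell in each mouse comparison.

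Several marker lists moved with the groups, and their part in the P450 results was not tested. The summed level of the 5 skeletal muscle markers (linear signal relative to the 75th percentile) was 0.49 to 4.36 on room-temperature control arrays and 73.2 to 131.6 on those labelled knockout, nearly all of it from Mb, which rose by 6.63 at room temperature and by 5.79 in the cold. Without Mb, the sum stayed at or under 0.227 on the room-temperature arrays except 1 labelled knockout array at 15.19. It was 108.5 and 133.1 on cold control arrays 1 and 2 against 0.0791 and 1.71 on cold control arrays 3 and 4. On cold labelled knockout array 4 it was 16.32, and on arrays 1 to 3 of that group at or under 0.677. Culture arrays ranged from 12.8 to 73.2 with Mb and from 0.27 to 4.17 without it. Ckm, Myh4 and Myh1 were not well above background on any room-temperature control array. In the cold, 6 of 8 preadipocyte and fibroblast markers and 5 of the 5 macrophage markers tested were higher on the arrays labelled knockout. In the Pparg knockdown 6 of 6 adipocyte markers were lower and 4 of 8 preadipocyte and fibroblast markers higher, with a summed level of 14.5 to 17.2 in the controls and 21.6 to 25.1 in the knockdown. That sum was 20.8 to 24.6 in the Gyk controls, 21.1 and 18.9 on Gyk knockdown arrays 1 and 2, and 7.71 and 7.15 on arrays 3 and 4. In bulk samples, fewer cells of a type and less RNA per cell cannot be told apart.

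P450 genes split by where they could be measured. On all 32 arrays, 15 of the 51 members were well above background, among them Cyp1b1, Cyp2f2, Cyp39a1, Cyp4v3, Cyp4f13, Cyp2r1 and Cyp20a1. In culture, 8 members were above background on none of the 16 arrays: Cyp1a1, Cyp2a4, Cyp2b9, Cyp2c55, Cyp2d12, Cyp2j13, Cyp4b1 and Cyp7b1. The reverse held for Cyp2c23, an epoxygenase of arachidonic acid, which was above background on all 16 culture arrays and on none from mice. Cyp1a1 and Cyp2j13 were above background on all 8 room-temperature mouse arrays and on no other array. Cyp4f14 was above background on all 4 arrays of each group with Pparg knockdown or the knockout label, on 1 cold control array and on none of the other 19 arrays.

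**Figure D1:**
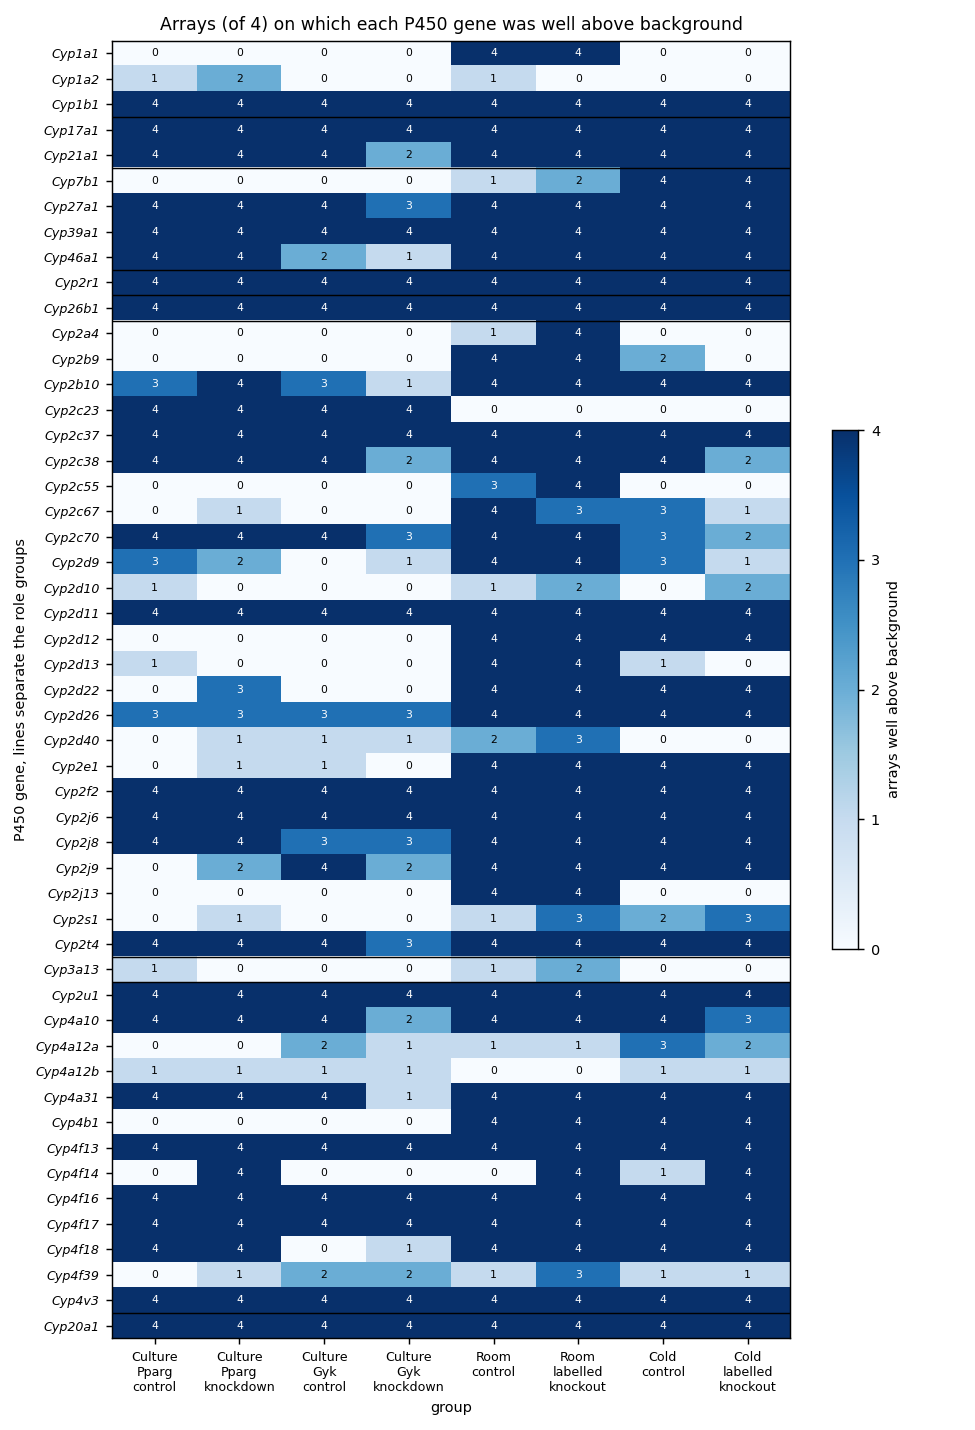
Number of arrays, of 4 per group, on which each of the 51 P450 genes (rows, by role group) was well above background in each of the 8 groups (columns). Rows dark across all columns are the 15 genes seen on all 32 arrays, and Cyp1a1 and Cyp2j13 are dark only in the room-temperature columns.

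In culture, knockdown of Pparg raised 7 and lowered 3 of the 30 P450 members that could be tested. That is 33.3% of those tested, against 34.1% called among all 12843 genes (18.1% higher and 16% lower), and 11 of 30 had groups that did not overlap, against 35.9% of all genes. The median difference of the tested members was 0.23, against 0.03 for all genes. With the replicate number as a block 18 members were called, where 57.7% of all genes were, and with the slide as a block 20, where 59.2% of all genes were. The genes added by the replicate block included Cyp2b10 (0.68, adjusted p 0.00034), Cyp2u1 (-0.48, adjusted p 0.00193) and Cyp2j8 (0.42, adjusted p 0.0037).

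On the arrays labelled Pparg knockout, 9 of 44 tested members were higher and 11 lower at room temperature (45.5%, against 44.6% of all genes, 19.6% higher and 25% lower). In the cold 8 of 38 were higher and 5 lower (34.2%, against 32% of all genes, 13.7% higher and 18.3% lower). Groups did not overlap for 18 of 44 members at room temperature, against 43.2% of all genes, and for 12 of 38 in the cold, against 34.3%. The median difference was -0.29 at room temperature and -0.13 in the cold, against -0.05 for all genes in both. The share of P450 genes called was thus near that of all genes in each comparison, and what follows describes the single genes. Members not tested, 21 in the Pparg knockdown, 23 in the Gyk knockdown, 7 at room temperature and 13 in the cold, were above background on fewer than 4 of the 8 arrays.

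**Figure D2:**
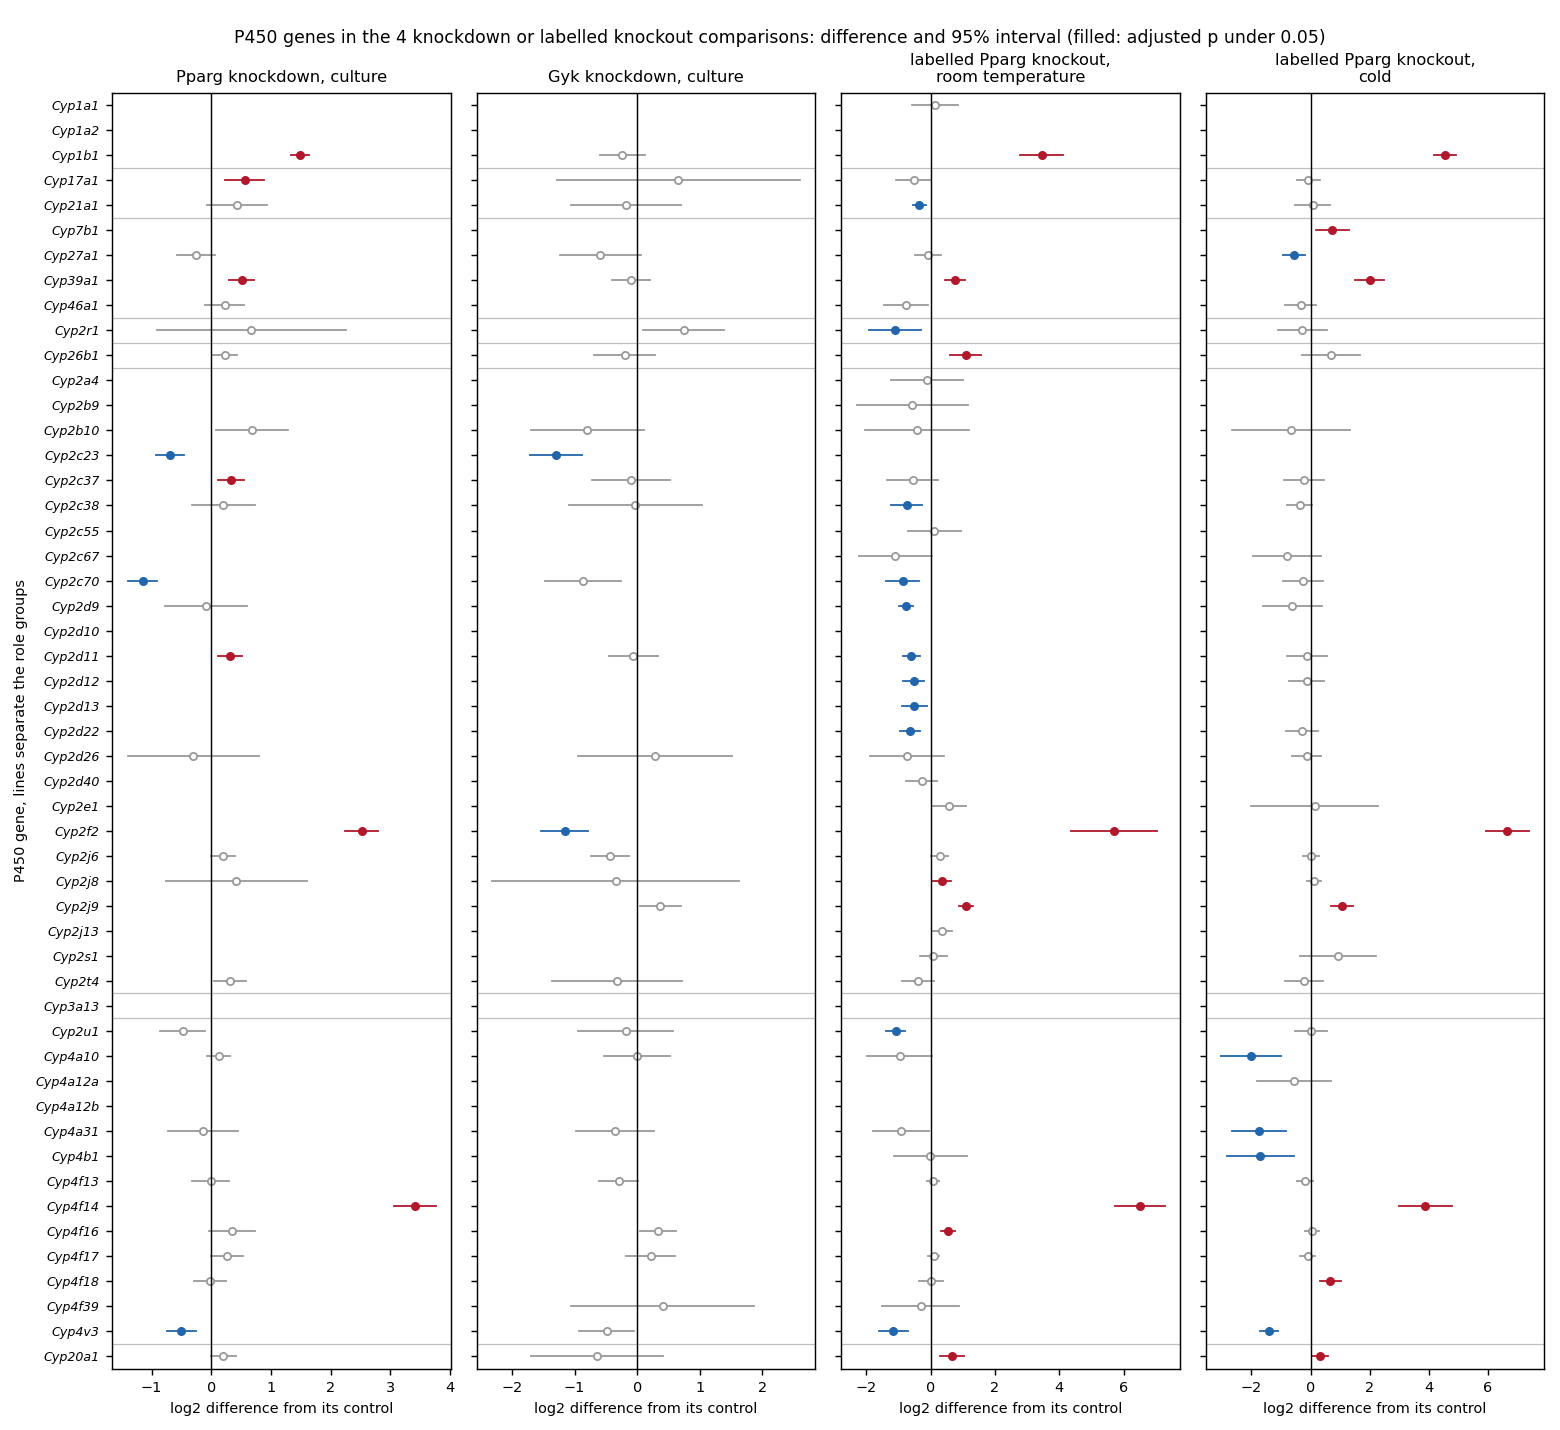
Log2 difference from the matching control (horizontal axis, each panel with its own scale) for the members tested in the 4 knockdown or labelled knockout comparisons, with its 95% confidence interval. Filled red and blue points are members called higher and lower, grey open points were not called. Cyp2f2, Cyp4f14 and Cyp1b1 lie farthest to the right in the 3 Pparg panels, and the Gyk panel holds 2 called genes, both to the left.

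Cyp2f2, best known as the naphthalene-activating enzyme of the airway, had the largest difference of any member between the cold arrays labelled knockout and their controls. In culture it read -1.59, -1.47, -1.21 and -1.05 on the 4 control arrays and 1.19, 1.14, 1.21 and 1.22 on the 4 Pparg knockdown arrays. The groups did not overlap, and the difference was 2.52 (SE 0.121, 5.73-fold, adjusted p 1.97e-06). At room temperature the control arrays read -2.40, -1.81, -2.43 and -2.85 and those labelled knockout 2.17, 3.54, 5.08 and 2.55. Every labelled knockout array was above every control, by 5.71 on average (SE 0.581, 52.3-fold, adjusted p 0.000155), with array 3 the highest. In the cold the controls read -1.93, -2.45, -3.56 and -3.20 and the labelled knockout arrays 3.996, 3.98, 3.72 and 3.82, a difference of 6.66 (SE 0.322, 101.4-fold, adjusted p 9.23e-06). The same gene moved the other way in the Gyk knockdown: its controls read -1.02, -0.60, -0.48 and -0.52 and its knockdown arrays -1.84, -1.63, -2.09 and -1.71. It fell by 1.16 (SE 0.162, adjusted p 0.00654) without overlap.

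Cyp4f14, a fatty acid hydroxylase of family 4 known for its action on leukotriene B4, appeared only where Pparg was knocked down or the label says knockout, with 1 cold control array as the exception. The Pparg knockdown arrays read -3.10, -3.06, -3.00 and -2.87, and all 4 culture controls, at -6.83, -6.14, -6.50 and -6.19, were not well above background. The rise was at least 4.98-fold (adjusted p 1.46e-06), and with normexp background correction it was 0.36 and not called (adjusted p 0.564). A bound here sets the mean of the bright group against the higher of the dim probe's own signal and the lowest signal well above background on each dim array. In culture and at room temperature Cyp4f14 entered the fit through its bright group alone. Its direction there follows from that filter, and its adjusted p rests on control values below background. At room temperature the labelled knockout arrays read 0.83, 1.25, 1.12 and 0.53 and the controls -6.05, -4.53, -5.81 and -5.92, none of the controls above background. The difference was at least 39.6-fold (adjusted p 8.29e-06). In the cold the labelled knockout arrays read -0.0044, 0.09, -1.46 and -1.18 and the controls -4.22, -4.37, -5.23 and -4.28, of which 1 was above background, for a fitted difference of 3.89 (SE 0.393, adjusted p 0.000355), to which the other 3 controls contribute values below background. In the Gyk experiment the gene was above background on 0 of 8 arrays.

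Cyp1b1, which oxidises retinoids, oestrogens and polycyclic hydrocarbons, was measured on every array. The culture controls read 1.39, 1.44, 1.44 and 1.46 and the Pparg knockdown arrays 2.86, 2.93, 2.89 and 2.99, so that the gap was many times the spread: 1.49 (SE 0.0665, adjusted p 1.40e-06). Room-temperature controls read -2.09, -1.29, -1.83 and -1.60 and labelled knockout arrays 1.22, 1.51, 2.55 and 1.70, a difference of 3.45 (SE 0.288, 10.9-fold, adjusted p 5.86e-05). Cold controls read -1.92, -1.46, -1.59 and -2.01 and labelled knockout arrays 2.78, 3.09, 2.71 and 2.67, a difference of 4.56 (SE 0.163, 23.6-fold, adjusted p 1.29e-06). In all 3 comparisons the groups did not overlap. The Gyk knockdown arrays read 1.38, 0.87, 1.07 and 1.38 against 1.64, 1.36, 1.24 and 1.41 in their controls, and the gene was not called there. Its relatives could not be compared in culture: Cyp1a1 was above background on no culture array and Cyp1a2 on 3 of them.

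Among the bile acid and sterol enzymes, Cyp39a1, the 7-alpha-hydroxylase of 24-hydroxycholesterol, rose in the 3 Pparg comparisons; it is shown array by array after its values were seen. In culture the controls read 0.60, 0.33, 0.53 and 0.61 and the Pparg knockdown arrays 1.16, 0.93, 0.98 and 1.04, a difference of 0.51 (SE 0.0916, adjusted p 0.0028). At room temperature the controls read -1.16, -0.94, -1.37 and -0.99 and the labelled knockout arrays -0.07, -0.51, -0.31 and -0.51, a difference of 0.76 (SE 0.136, adjusted p 0.00251). The groups did not overlap in either. In the cold the controls spread from -1.13 to -0.19 and the labelled knockout arrays from 1.19 to 1.61, a difference of 4.01-fold (SE of its log2 0.218, adjusted p 0.000488). Cyp7b1, the oxysterol 7-alpha-hydroxylase, was tested only in the cold of these comparisons, where it was 0.74 higher (SE 0.244, adjusted p 0.0465) with overlapping groups. Cyp27a1, the mitochondrial sterol 27-hydroxylase, was 0.56 lower in the cold (SE 0.164, log2 difference -0.56, adjusted p 0.03), a call that ended in 7 of 18 alternative settings. The brain cholesterol hydroxylase Cyp46a1 was tested in the 3 Pparg comparisons and called in none.

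**Figure D3:**
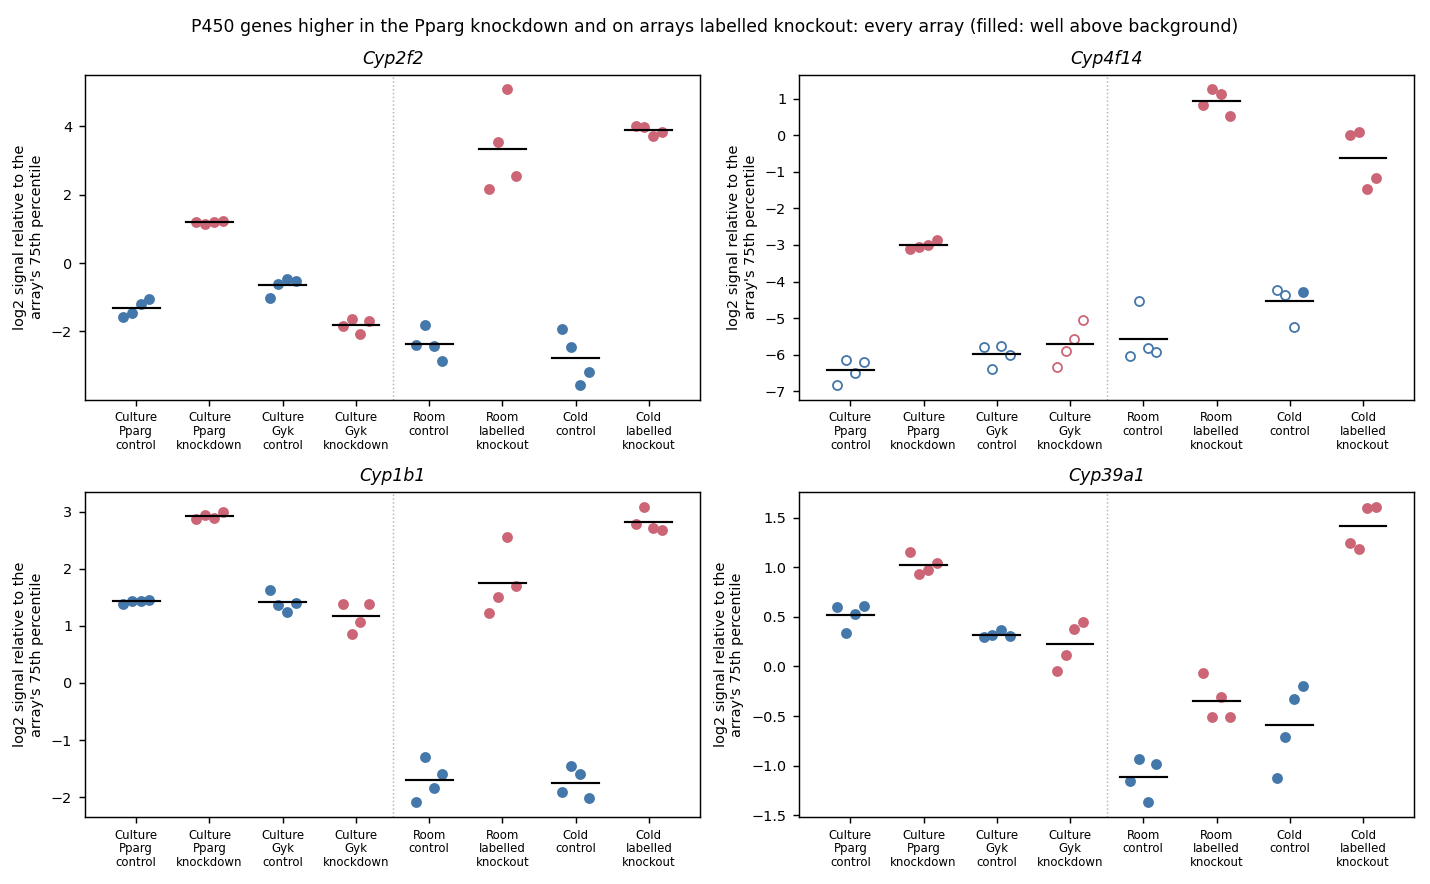
Log2 signal relative to the array's 75th percentile (vertical axis) for Cyp2f2, Cyp4f14, Cyp1b1 and Cyp39a1 on every array of the 8 groups; filled points are well above background, open points are not, and the line is the group mean. For each gene the Pparg knockdown and labelled knockout points (red) lie above all of their own controls (blue), and in the Gyk pair Cyp2f2 lies below.

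Of the fatty acid hydroxylases, Cyp4v3, an omega-hydroxylase of the endoplasmic reticulum, fell in the same 3 comparisons and is also shown after its values were seen. The culture controls read 0.28, 0.52, 0.67 and 0.66 and the Pparg knockdown arrays -0.05, -0.04, 0.04 and 0.16. The gene fell by 0.51 (SE 0.106, adjusted p 0.00619) without overlap. At room temperature the controls read 0.81, 1.06, 1.32 and 1.79 and the labelled knockout arrays 0.17, 0.12, 0.14 and -0.07, where it fell by 1.15 (SE 0.195, adjusted p 0.0019). In the cold the controls, at 2.53, 2.54, 2.43 and 2.76, were again all above the labelled knockout arrays, at 0.94, 1.15, 1.19 and 1.35, where it fell by 1.41 (SE 0.132, adjusted p 0.000266).

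Cyp4a10, Cyp4a31 and Cyp4b1, fatty acid hydroxylases of which the Cyp4a genes are classical targets of the related receptor PPAR alpha, were lower on the cold arrays labelled knockout. Cyp4a10 read -0.64, -1.69, -2.37 and -2.26 in the cold controls and -3.42, -2.98, -4.58 and -4.05 on the labelled knockout arrays, and fell by 2.02 (SE 0.445, adjusted p 0.00997) without overlap. Its other probes gave -2.55 and -0.71 for the same difference. At room temperature Cyp4a10 averaged -1.73 in the controls and -2.68 on the labelled knockout arrays, with overlapping groups and no call. The other probes, not tested themselves, gave -2.17 and -1.49 there. They were above background on 10 and 14 of the 32 arrays, so a fall at room temperature is not settled. Cyp4b1 read 3.96, 2.90, 1.95 and 1.74 in the controls and 1.66, 1.29, 0.45 and 0.34 on the labelled knockout arrays, and fell by 1.70 (SE 0.503, adjusted p 0.0312). For both genes cold control arrays 1 and 2 read above control arrays 3 and 4. Cold control arrays 1 and 2 share a slide and hold the highest muscle marker signal once Mb is left out. Without those arrays Cyp4a10 fell by 1.44 (adjusted p 0.0411) and Cyp4b1 was 0.91 lower (log2 difference -0.91, adjusted p 0.12), no longer called. The Cyp4b1 call also ended without control array 1 or 2, or labelled knockout array 3 or 4, alone (adjusted p 0.0514 to 0.0823). The labelled knockout arrays of that slide were also the higher pair for Cyp4b1: within the slides it fell by 1.95 and 1.45, with an adjusted p of 0.00124 with the slide as a block. With normexp Cyp4a10 fell by 0.53 and was not called (adjusted p 0.256). Cyp4a31 fell by 1.73 (SE 0.403, adjusted p 0.0124). Cyp4a10 and Cyp4a31 are near-identical copies, whose probes may read each other's RNA.

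Among the other members of this group, Cyp4f16 rose by 0.55 (SE 0.0924) at room temperature and Cyp4f18 by 0.67 (SE 0.158) in the cold. Cyp2u1, which hydroxylates long-chain fatty acids, fell by 1.08 (SE 0.127, adjusted p 0.000308) at room temperature: its control arrays lay between -1.27 and -0.76 and its labelled knockout arrays between -2.25 and -1.97. In the cold its groups overlapped and no difference was called. Cyp4f13 and Cyp4f17 were tested in all 4 knockdown or labelled knockout comparisons and called in none.

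**Figure D4:**
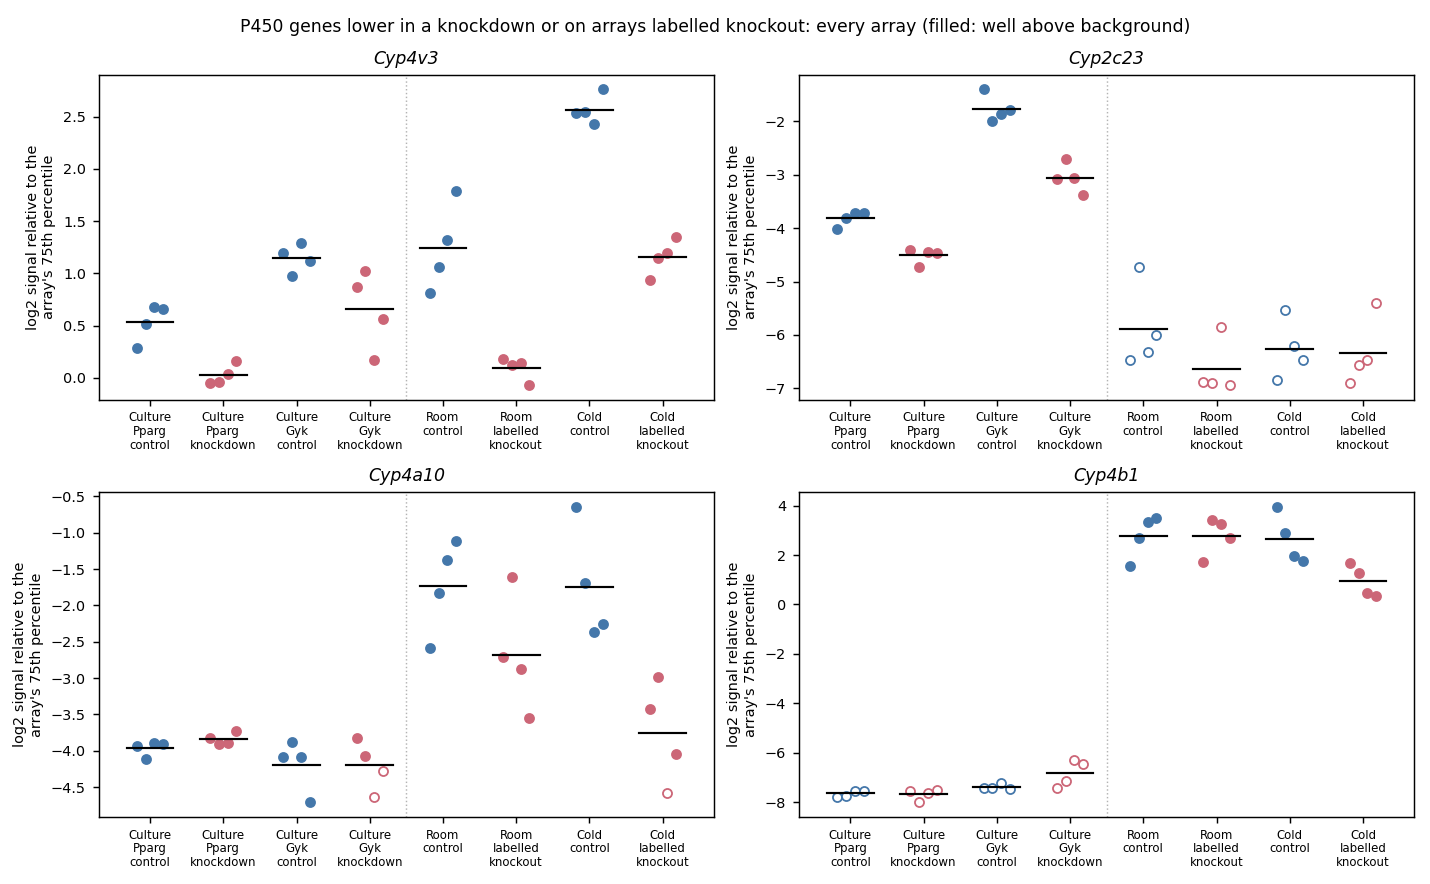
Log2 signal relative to the array's 75th percentile for Cyp4v3, Cyp2c23, Cyp4a10 and Cyp4b1 on every array of the 8 groups; filled points are well above background, open points are not, and the line is the group mean. Cyp4v3 lies lower in the Pparg knockdown and labelled knockout groups than in their controls, Cyp2c23 is above background in culture only, and Cyp4a10 and Cyp4b1 separate in the cold pair.

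Among the remaining family 2 genes, Cyp2c23, the culture-only epoxygenase, fell in both knockdowns. Its range was -4.02 to -3.72 in the Pparg controls and -4.73 to -4.41 in the Pparg knockdown, where it fell by 0.69 (SE 0.105, adjusted p 0.00113). In the Gyk experiment it ranged from -1.998 to -1.40 in the controls and from -3.39 to -2.70 in the knockdown, where it fell by 1.29 (SE 0.183, adjusted p 0.00675). Cyp2c70, which makes muricholic bile acids in mouse liver, fell by 1.15 in the Pparg knockdown (SE 0.108, adjusted p 7.55e-05) and by 0.87 on the room-temperature arrays labelled knockout (SE 0.226, adjusted p 0.0146). Cyp2j9, an arachidonic acid epoxygenase, rose in mice by 1.10 at room temperature (SE 0.0963, adjusted p 7.27e-05) and by 1.07 in the cold (SE 0.168, adjusted p 0.00257), with no overlap in either.

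At room temperature 5 Cyp2d genes (Cyp2d9, Cyp2d11, Cyp2d12, Cyp2d13 and Cyp2d22) were lower on the arrays labelled knockout, by log2 differences of -0.78 to -0.50. Cyp2d26 (-0.74) and Cyp2d40 (-0.28) were tested there and not called. Of all genes, 25% were called lower in that comparison. These genes form a cluster of close copies, so that their probes may not be independent, and the Cyp2d13 call ended in 11 of 17 alternative settings. In the cold none of the Cyp2d genes tested was called. Cyp2d11 rose by 0.31 in the Pparg knockdown, the opposite direction.

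The vitamin D, retinoic acid and steroid enzymes each had few members. Cyp2r1, the vitamin D 25-hydroxylase, read 3.02, 3.40, 2.16 and 3.17 in the room-temperature controls and 1.22, 1.49, 2.60 and 1.9994 on the labelled knockout arrays. The groups overlapped through control array 3, and the fall of 1.11 (SE 0.352, adjusted p 0.032) was lost in 7 of 17 alternative settings. A second Cyp2r1 probe gave -1.24. Cyp26b1, which breaks down retinoic acid, rose by 1.09 at room temperature (SE 0.211, adjusted p 0.00371). Cyp17a1 rose by 0.56 in the Pparg knockdown (SE 0.143, adjusted p 0.0159), and Cyp21a1 fell by 0.34 at room temperature (SE 0.0846, adjusted p 0.0111). The enzyme that starts steroid synthesis, Cyp11a1, was above background on 0 arrays.

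Knockdown of Gyk called 2 of 28 tested members, Cyp2f2 and Cyp2c23, both lower (7.14%, against 8.76% of all 12219 genes tested, 4.65% higher and 4.11% lower). Groups did not overlap for 5 of the 28, against 22.5% of all genes. The median of the tested members was -0.19, against 0.02 for all genes. Without knockdown arrays 3 and 4, the dimmest pair, 4 members were called. Neither the Cyp2f2 nor the Cyp2c23 call was kept in every alternative setting, as given in the closing section. Members with wide intervals here, such as Cyp17a1 with 0.66 (95% interval -1.29 to 2.60), were not resolved at this spread.

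Genes of electron supply to P450 enzymes and of haem synthesis and breakdown were counted in the same comparisons. Of 21 such genes tested, 1 rose and 7 fell in the Pparg knockdown, 2 rose and 9 fell at room temperature, and 1 rose and 10 fell in the cold, and 0 rose and 4 fell in the Gyk knockdown. Of all genes, 18.1% rose and 16% fell in the Pparg knockdown, 19.6% and 25% at room temperature, 13.7% and 18.3% in the cold, and 4.65% and 4.11% in the Gyk knockdown. With the replicate number as a block, 3 rose and 12 fell in the Pparg knockdown, where 57.7% of all genes were called. The list's medians were -0.30, -0.31, -0.43 and -0.14, against 0.03, -0.05, -0.05 and 0.02 for all genes. Alad, which acts in haem synthesis, fell in all 3 Pparg comparisons, by 1.03, 1.12 and 1.43 (culture, room temperature, cold). The biliverdin reductase Blvra fell by 1.30, 1.03 and 1.55, and the mitochondrial electron donor Fdx1 by 0.69, 0.62 and 0.37. Cyb5a, cytochrome b5, which passes electrons to several P450 enzymes, rose in mice by 2.14 (SE 0.15) at room temperature and by 1.05 (SE 0.11) in the cold. Por, the electron donor of microsomal P450 enzymes, fell by 0.44 in the Pparg knockdown and was not called in the other 3.

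The enzymes that follow P450 oxidation with conjugation or epoxide hydrolysis had 6 higher and 1 lower of 11 in the Pparg knockdown, 6 higher and 3 lower at room temperature, 3 of each in the cold, and 2 of each in the Gyk knockdown. Of all genes, 34.1%, 44.6%, 32% and 8.76% were called in these comparisons. The replicate block gave 8 higher and 3 lower in the Pparg knockdown, where 57.7% of all genes were called. The medians of this list were 0.39, 0.96, -0.01 and -0.34, against 0.03, -0.05, -0.05 and 0.02 for all genes. The glutathione transferase Gstt1 rose in all 4, by 1.48, 1.82, 1.65 and 0.89 (Pparg knockdown, room temperature, cold, Gyk knockdown), and the microsomal epoxide hydrolase Ephx1 by 0.69, 1.72, 1.09 and 0.59. Ephx2, the soluble epoxide hydrolase that clears the products of epoxygenases, fell in mice by 1.52 at room temperature and by 1.08 in the cold. Among the genes of retinoid handling, 3 rose and 3 fell of 11 in the Pparg knockdown and of 12 at room temperature, and 1 rose and 2 fell of 12 in the cold, with medians of 0.13, -0.20 and 0.19. Aldh1a1, which makes retinoic acid, rose by 1.31 in the knockdown and 1.47 at room temperature.

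Of the xenobiotic receptor list, 1 of 6 tested genes rose in each Pparg comparison. Among all genes 18.1% rose in the knockdown, 19.6% at room temperature and 13.7% in the cold. Nqo1 rose in the knockdown (2.002-fold) and in the cold (log2 0.79), and Tiparp at room temperature (log2 0.87). Tiparp and Ahr fell in the knockdown by 0.54 and 0.21, where 16% of all genes fell. Of the vitamin D and oxysterol list, Nr1h3, the oxysterol receptor LXR alpha, fell in all 3 Pparg comparisons, by 1.28, 0.74 and 1.19, and Vdr rose by 1.22 in the Pparg knockdown and by 0.77 in the Gyk knockdown. Ptgis, the prostacyclin synthase and a P450 set aside by the symbol rule, fell by 1.36 in the Pparg knockdown and by 0.80 at room temperature.

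The labelled knockout difference was itself compared between cold and room temperature, over the 16 mouse arrays. Of 47 tested members, 3 had a higher and 2 a lower difference in the cold (10.6%, against 13.4% of all 14065 genes, 6.11% higher and 7.24% lower). Cyp39a1 differed by 1.24 (SE 0.269, adjusted p 0.0098), Cyp2u1 by 1.11 (SE 0.286, adjusted p 0.0216) and Cyp1b1 by 1.11 (SE 0.349, adjusted p 0.049). The Cyp1b1 call ended in 19 of 25 alternative settings. Cyp4f14 differed by -2.62 (SE 0.559, adjusted p 0.00909), but 4 of 4 room-temperature and 3 of 4 cold controls were not above background, so that neither its size nor its direction is fixed. Cyp4f16 differed by -0.51 (SE 0.127, adjusted p 0.0189). Temperature was confounded with slide and scan day in these arrays, although each slide held both genotypes.

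Cold and room-temperature arrays lay on different slides and were scanned on different days, so temperature and batch cannot be told apart in what follows. Of 47 tested members, 13 were higher and 17 lower in the cold among controls (63.8%, against 66.7% of all genes, 41.6% higher and 25.1% lower). Among arrays labelled knockout, 15 were higher and 19 lower (72.3%, against 65.5%, 40.9% higher and 24.6% lower). Groups did not overlap for 26 of 47 members among controls, against 59.5% of all genes, and for 29 of 47 among arrays labelled knockout, against 60.5%. The median of all genes was 0.23 in both comparisons, and that of the members -0.25 and -0.55. Normexp background correction left 18 calls among controls. Ucp1 was lower in the cold, by 1.04 among controls and by 1.03 among arrays labelled knockout. Gk fell by 2.24 and 2.40 in the same order, and Pparg rose by 0.45 and 0.50. Of the 7 brown adipocyte markers, 0 rose and 3 fell among controls, and 0 rose and 4 fell among arrays labelled knockout. The cause of these falls was not tested.

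Cyp1a1, the classical Ah receptor target, read -1.69, -1.78, -0.48 and -1.23 in the room-temperature controls and -1.47, -0.84, -0.73 and -1.55 on the labelled knockout arrays of that temperature. On the 8 cold arrays it was not well above background and read -6.65 to -6.26. With the signal used here it was therefore at least 10.8-fold lower in the cold among controls (adjusted p 3.34e-10) and at least 11.7-fold lower among arrays labelled knockout (adjusted p 2.71e-10), and its genotype groups overlapped. Over the alternative settings its difference ranged from -5.49 to -1.43 among controls and from -5.57 to -1.12 among arrays labelled knockout, and was always called. Cyp2j13 behaved alike, with -2.22 to -2.01 in room-temperature controls, -2.11 to -1.56 on the labelled knockout arrays, and no cold array above background. With the same signal it was at least 6.23-fold lower among controls and at least 7.71-fold lower among arrays labelled knockout, while its other probes were near background. Over the alternative settings its difference among controls ranged from -4.03 to -0.93 and was always called. With normexp Cyp2j13 fell by 0.53 among arrays labelled knockout (adjusted p 0.121) and was not called. Cyp1a1 and Cyp2j13 entered the fit through room-temperature arrays alone. Their direction follows from that filter, and their adjusted p rests on cold values below background.

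Cyp2b9 and Cyp2b10, targets of the receptor CAR (Nr1i3), were lower in the cold as well. Cyp2b9 read -1.66, -1.99, 0.89 and 0.95 in room-temperature controls and -3.97, -3.02, -5.74 and -5.03 in cold controls, and fell by 3.99 (SE 0.754, adjusted p 0.000289). In these controls, arrays of a slide lay together at both temperatures. On the labelled knockout arrays it read -1.28, -1.13, 0.12 and -1.77 at room temperature and was above background on 0 cold arrays, at least 12.3-fold lower (adjusted p 0.000106). With normexp that last difference was -1.11 and not called (adjusted p 0.0759). Among arrays labelled knockout Cyp2b9 cleared background at room temperature alone, so its adjusted p there rests on cold values below background. Cyp2b10 read 4.56, 4.41, 7.09 and 7.13 in room-temperature controls and 4.95, 6.02, 2.20 and 2.26 in cold controls, overlapping groups in which the slide pairs differ by more than the temperatures. Only among arrays labelled knockout was it called, from 4.99, 5.31, 6.35 and 4.87 to 4.11, 3.69, 2.14 and 2.81, where it fell by 2.20 (SE 0.872, adjusted p 0.0381, lost in 6 of 24 settings). Nr1i3 was 11.3-fold lower in the cold among controls and fell by 2.69 among arrays labelled knockout. Its part in the Cyp2b9 and Cyp2b10 differences was not tested.

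Cyp2a4, Cyp2c55 and Cyp2d13, family 2 genes best known from the liver, were near background at room temperature and below it on nearly all cold arrays. Cyp2a4 was above background on 1 of 4 room-temperature control arrays, at -2.69, and on the labelled knockout arrays at -4.10, -2.68, -4.42 and -4.51, and was above background on 0 cold arrays. Among arrays labelled knockout it was at least 1.70-fold lower in the cold. Cyp2c55 read -3.31, -3.41, -4.82 and -3.08 in room-temperature controls and -3.53, -3.73, -3.19 and -3.68 on labelled knockout arrays, and was at least 2.05-fold and at least 2.23-fold lower. Cyp2d13 read -3.82, -3.46, -3.67 and -4.08 in room-temperature controls and -4.11, -4.27, -4.04 and -4.61 on labelled knockout arrays; 1 cold control array, at -3.07, was above all of them. It was called lower in both comparisons, with a bound of at least 1.35-fold for the labelled knockout arrays. Under normexp the differences of these 3 genes among labelled knockout arrays turned positive, and among controls none of the 3 was called. Cyp2a4 and Cyp2c55 entered the fit through room-temperature arrays alone, so that their direction follows from that filter.

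Liver markers moved with these room-temperature genes, and their part was not tested. The summed level of the 6 hepatocyte markers was 0.83 to 13.5 on room-temperature control arrays and 2.17 to 8.89 on the labelled knockout arrays, against 0.13 to 0.55 and 0.45 to 1.43 in the cold. Alb, Apoa1, Ttr, Apoh and Fgb were above background on 0 cold arrays. Not every family 2 gene was lower in the cold: Cyp2d11, Cyp2d12 and Cyp2d22 were higher without overlap. They rose by 1.05 to 1.24 among controls and by 1.53 to 1.59 among arrays labelled knockout. Of 24 tested family 2 genes outside the fatty acid and vitamin D groups, 5 rose and 11 fell in each comparison. Of all genes, 41.6% rose and 25.1% fell among controls, and 40.9% and 24.6% among arrays labelled knockout.

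Cyp27a1 and several family 4 genes were higher in the cold. Cyp27a1 read -2.41, -2.08, -1.89 and -1.73 in room-temperature controls and -0.31, -0.15, 0.22 and 0.23 in cold controls, a rise of 2.03 (SE 0.175, adjusted p 1.29e-07), and rose by 1.54 (SE 0.175) on the labelled knockout arrays. Cyp4v3 rose by 1.32 and 1.06 in the same order, Cyp4f13 by 1.52 and 1.27, and Cyp4f16 by 1.60 and 1.09. Each of these exceeded the 0.23 shift of all genes. Cyp2r1 went the other way and fell by 2.09 among controls (SE 0.387) and by 1.26 (SE 0.387) among arrays labelled knockout. Cyp17a1 fell by 1.90 and 1.46. Of the 12 fatty acid hydroxylases tested, 5 rose and 0 fell among controls, and 6 rose and 2 fell among arrays labelled knockout. The 5 among controls include Cyp4f14, which was above background on 0 room-temperature control arrays and 1 cold control array. That call ended in 9 of 25 alternative settings. Of all genes, 41.6% rose and 25.1% fell among controls, and 40.9% and 24.6% among arrays labelled knockout. The 2 that fell were Cyp4b1, by 1.83, and Cyp4f14, whose difference ranged from -1.81 to -1.23 over 24 alternative settings.

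**Figure D5:**
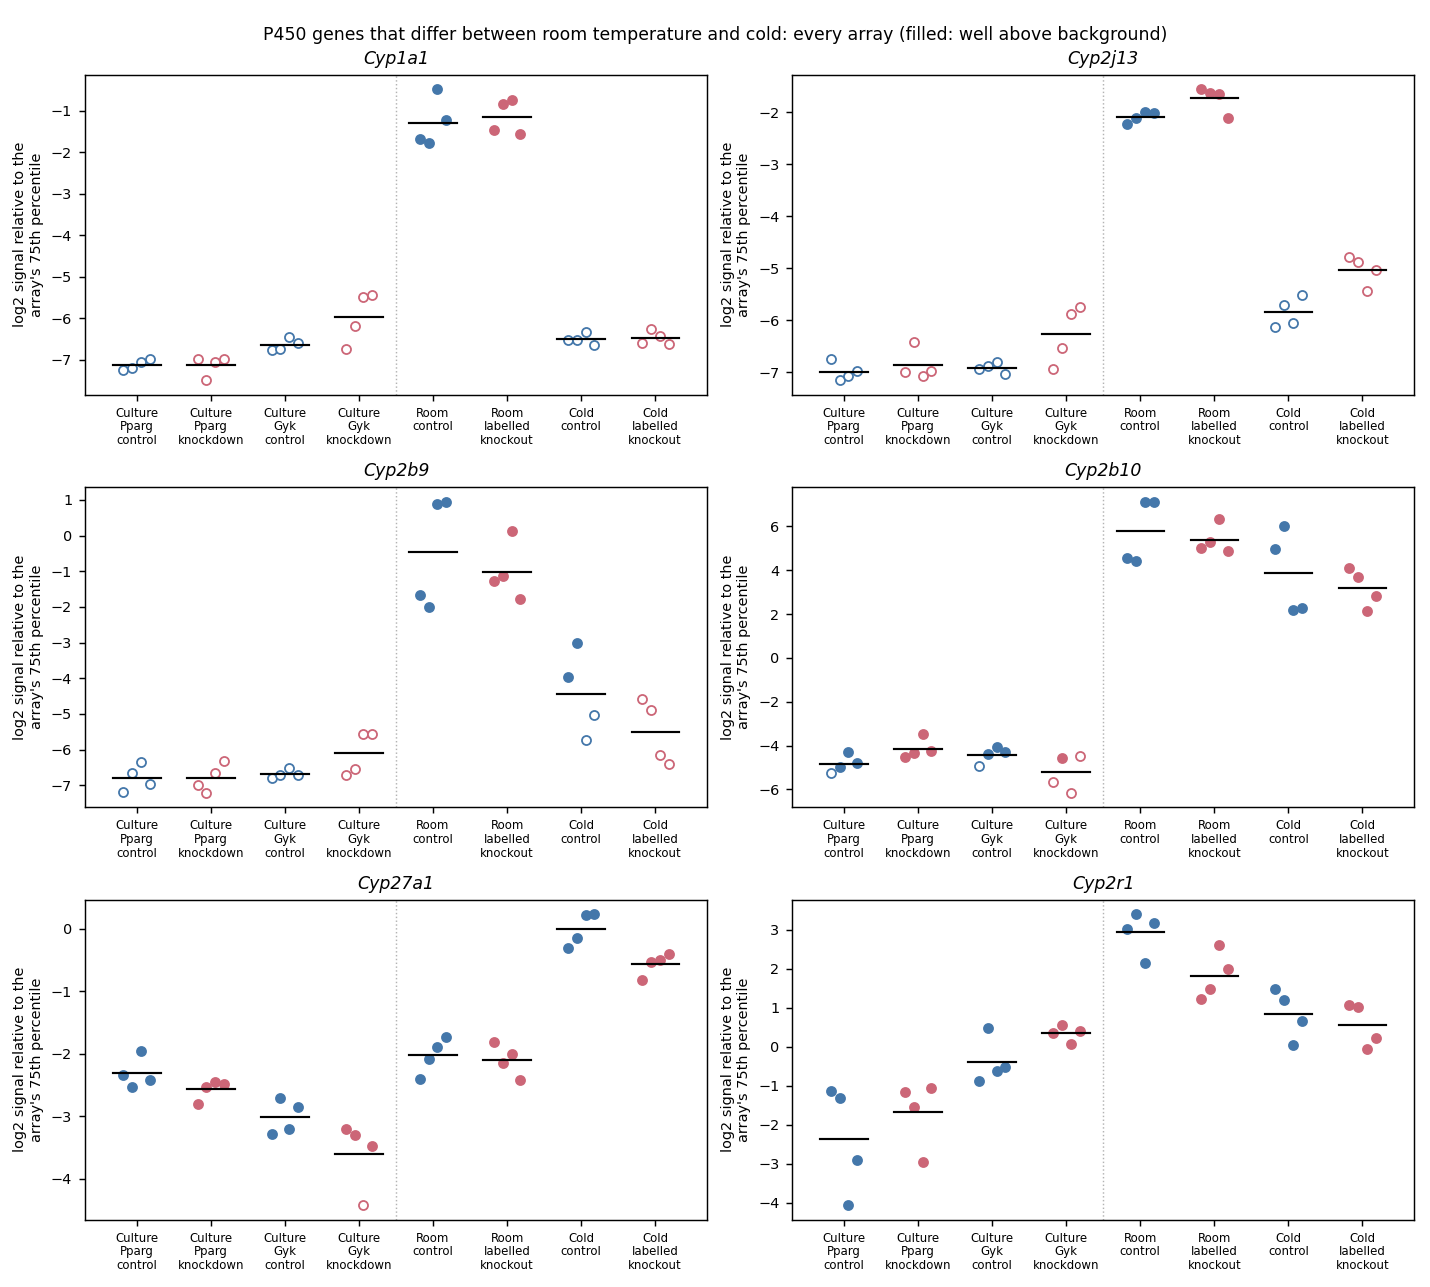
Log2 signal relative to the array's 75th percentile for Cyp1a1, Cyp2j13, Cyp2b9, Cyp2b10, Cyp27a1 and Cyp2r1 on every array of the 8 groups; filled points are well above background, open points are not, and the line is the group mean. Cyp1a1 and Cyp2j13 are filled only at room temperature, the slide pairs of Cyp2b9 and Cyp2b10 lie apart within both mouse control groups, and Cyp27a1 is higher in the cold.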

How the data were processed

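RNA of 32 samples was hybridised to 1-colour Agilent arrays. Spots were read with Agilent Feature Extraction 10.7.3.1, which subtracts background, per the file headers; the deposited intensity is its processed signal. The series table's deposited intensity values equal them exactly (relative difference 0).

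Control spots and outlier spots were removed, log2 was taken, and each array's 75th percentile (141.3 to 806.3 intensity units) was subtracted. Probes were named through RefSeq accessions (27234 of 39429), with 1 probe per gene, the brightest. limma 3.58.1 in R 4.3.3 tested genes that cleared background in 4 or more arrays of the fit, with an adjusted p threshold of 0.05; the code was tested on simulated data. Each knockdown or labelled knockout comparison used its own 8 arrays, and the cold comparisons and the interaction all 16 mouse arrays. Every member called in a comparison could be named; array values were given for the 12 with the largest differences of at least 1 (log2), and for Cyp39a1, Cyp4v3, Cyp4a10 and Cyp4b1, chosen after their values were seen. The members and lists were chosen with earlier results of these data known.

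There were 8 slides of 4 arrays and 4 scan days, 1 day and 2 slides per experiment. Same-numbered arrays of the Pparg knockdown deviated together (correlations 0.703 to 0.768), as did arrays of the same slide under another number (0.69 to 0.725), so pairing and slide cannot be separated. The number of arrays limits the precision.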

Additional observations from a re-analysis of the deposited data

Results flagged for a closer look

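In 7 of 128 groups of 4 arrays looked at, 1 array lay far from the other 3, where chance gives about 1 in 20. Cyp2a4 read -2.69 on room-temperature control array 2, the only one of the 7 arrays on which the gene was well above background. The other 6 lay below it: Cyp4f14 at -4.53 on room-temperature control array 2 and at -5.23 on cold control array 3, Cyp1a1 at -7.50 and Cyp2j13 at -6.41 on Pparg knockdown array 2, and Cyp2c55 at -5.27 on Pparg knockdown array 1 and at -5.11 on cold labelled knockout array 2.

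The difference between labelled knockout and control changed with temperature for 5 members by a test of the difference itself (limma, 16 mouse arrays). It was higher in the cold for Cyp1b1 (1.11), Cyp2u1 (1.11) and Cyp39a1 (1.24), and lower for Cyp4f16 (-0.51). For Cyp4f14 the fitted value was -2.62, but 4 of 4 room-temperature and 3 of 4 cold controls were not above background, so that neither its size nor its direction is fixed.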

How the results depend on the processing

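Over 49 gene comparisons shown array by array and 1038 pairs of gene comparison and setting, 954 kept direction and call, 81 kept the direction but lost the call, and 3 reversed. The 3 reversals came with normexp background correction for arrays labelled knockout, cold against room temperature: Cyp2c55 at 0.16, Cyp2d13 at 0.13 and Cyp2a4 at 0.33. Normexp also reduced the P450 members called to 5 in the Pparg knockdown, 1 in the Gyk knockdown, 10 at room temperature, 8 in the cold, 18 for cold among controls and 2 for the interaction. The causes were not tested. In the Pparg knockdown 18 members were called with the replicate number as a block (pairing by number) and 20 with the slide as a block. In the other experiments the numbers were not taken to pair arrays (same-number correlations over 0.1 in 2 of 4 pairs for Gyk, 0 at room temperature and 2 in the cold). There the replicate block gave 0 calls for Gyk (7 at an unadjusted p under 0.05, with adjusted p of 0.053 for Cyp2f2 and 0.0574 for Cyp2c23), 20 at room temperature and 14 in the cold. For Gyk it also took conjugation and epoxide hydrolysis genes from 2 higher and 2 lower to 0 (Gstt1 adjusted p 0.1, Ephx1 0.101), electron supply and haem genes from 4 lower to 1, and Vdr to 0.0763. In the Gyk knockdown leaving out knockdown arrays 3 and 4, chosen after seeing the data, gave 4. Without cold control arrays 1 and 2, also chosen after seeing the data, 10 members were called in the cold knockout comparison, 30 for cold among controls and 5 for the interaction. Leaving out each array in turn gave 7 to 11 calls in the Pparg knockdown, 2 to 3 in the Gyk knockdown, 17 to 21 at room temperature, 9 to 11 in the cold, 28 to 31 and 28 to 36 for cold among controls and labelled knockout arrays, and 4 to 5 for the interaction. Members below background on an array have no order there, and dim probes limit what can be said of Cyp2a4, Cyp2c55 and Cyp2d13.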
